A study of Mus musculus with 2 samples.

Results

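The cells described here were Dntt-rich progenitors among sorted mouse multipotent progenitors, 793 of 7823 kept cells. A kept barcode had at least 500 detected genes and under 10% of its counted molecules (unique molecular identifiers, UMIs) from mitochondrial genes. A cell was a member when it held at least 4 UMIs of Dntt and 0 UMIs of Il7r, of the myeloid granule set Mpo, Ctsg, Elane and Ms4a3, and of the stem cell genes Hlf and Mecom. These 8 gene counts chose the members, so their levels are a description and support nothing, and all 8 were left out of the genes compared. Dntt serves later only to group or rank cells.

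Dntt encodes terminal deoxynucleotidyl transferase, the enzyme that adds untemplated bases at the joints of rearranging antigen receptor genes. In mouse bone marrow it comes on in multipotent progenitors that keep high Flt3, the receptor of the cytokine FLT3 ligand, before the interleukin-7 receptor and the recombinase genes are well expressed. Such lymphoid-primed progenitors can still make granulocytes and macrophages, and transcripts of both fates are found in them before commitment.

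The series held 1 sample of C57BL/6 mice lacking Spp1 (Spp1-/-), which encodes osteopontin, a cytokine-like protein of the extracellular matrix, and 1 sample of wild-type (WT) C57BL/6 mice. Both had received thioglycollate, a peritoneal irritant, 20 hours before the bone marrow was taken, and both were sorted as lineage-negative cells positive for Sca-1, c-kit, CD34 and what the labels write as Flt3L. The RNA was counted by droplet-based 3-prime sequencing. The sources used here give no age, sex or number of mice. The deposited matrix pools both samples. Its barcodes end in 1 of 2 suffixes, and no source links either suffix to a genotype. The suffixes are therefore called library 2 and library 1, and genotypes are not compared. Spp1 itself had 0 UMIs in members of library 2 and 2 UMIs in members of library 1, and other kept cells had 1 and 31. These counts were not used to assign a genotype. With 1 library per genotype there is no test. The 95% intervals are exact Poisson, exact binomial (Clopper-Pearson) or conditional Poisson intervals, and they cover counting error only.

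Members made up 516 of 4570 kept cells of library 2 (11.3%, 10.4 to 12.2) and 277 of 3253 kept cells of library 1 (8.52%, 7.58 to 9.53). The gate was set on raw UMIs, and the libraries differed in depth. Median depth was 3674.5 UMIs in members and 3858 UMIs in other kept cells of library 2, and 2685 UMIs in members and 2855.5 UMIs in other kept cells of library 1. With every cell thinned to 2000 UMIs and the gate set on the thinned counts, 9.36% of library 2 and 6.67% of library 1 were members. Members held 35.9% of their UMIs in ribosomal protein genes in library 2, against 34.3% in other cells, and 39.4% in library 1, against 38.3% (medians). Their median mitochondrial share was 0.479% in library 2, against 0.514%, and 0.437% in library 1, against 0.473%. The 2 libraries shared 32 barcode sequences among kept cells and 1 among members.

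Among all 1480 kept cells with 4 or more Dntt UMIs, the 793 members were the largest class. A further 323 cells failed on granule transcripts alone, 170 on Il7r alone, 86 on Hlf or Mecom alone, and 108 on more than 1 of these conditions. Members had a median of 7 Dntt UMIs in library 2 and 6 in library 1, with maxima of 31 and 20. At the threshold itself, 96 members of library 2 and 67 of library 1 held exactly 4 Dntt UMIs. Within the UMI range used below, the 84 and 55 cells with 4 Dntt UMIs can be set beside the 103 and 70 cells with 3 Dntt UMIs that met every other condition. Prtn3 stood at 771 counts scaled to a total of 1000000 UMIs (CPM) in the cells with 4, against 774 CPM in those with 3, in library 2, and at 668 against 645 CPM in library 1. Cox6a2 stood at 112 against 72.1 CPM in library 2 and at 216 against 161 CPM in library 1. Ly6d stood at 91.9 CPM in the cells with 4, from 28 UMIs, against 22.2 CPM from 8 UMIs in those with 3, in library 2, and at 87.8 against 16.1 CPM, from 13 and 3 UMIs, in library 1. Prtn3 was thus near level across the threshold, while Ly6d was higher just inside it in both libraries, from few UMIs. The globin gene Hbb-bt had the same log2 ratio as Ly6d in library 2 (2.05, from 14 and 4 UMIs) and -0.67 in library 1. No step at the threshold is read from these counts.

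To see what else marked these cells, the summed UMIs of members, as CPM, were set against those of all other kept cells between the 5th and 95th percentile of member depth in the same library. This left 464 members and 3046 other cells in library 2, and 249 members and 2073 other cells in library 1. A gene was tested where at least 20 member UMIs were expected in each library, and it was called when it differed 1.5-fold or more in the same direction in both libraries. Of 3413 genes tested, 22 rose in members (0.645% of genes tested) and 28 fell (0.82%). The background is uneven between libraries. In library 2 alone 0.938% of genes were past 1.5-fold upward and 1.38% downward, against 2.37% and 4.34% in library 1, which held fewer members and fewer UMIs. The median log2 ratio over all tested genes was -0.05 in library 2 and -0.03 in library 1, and 64.3% of genes had the same sign in both.

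**Figure D1:**
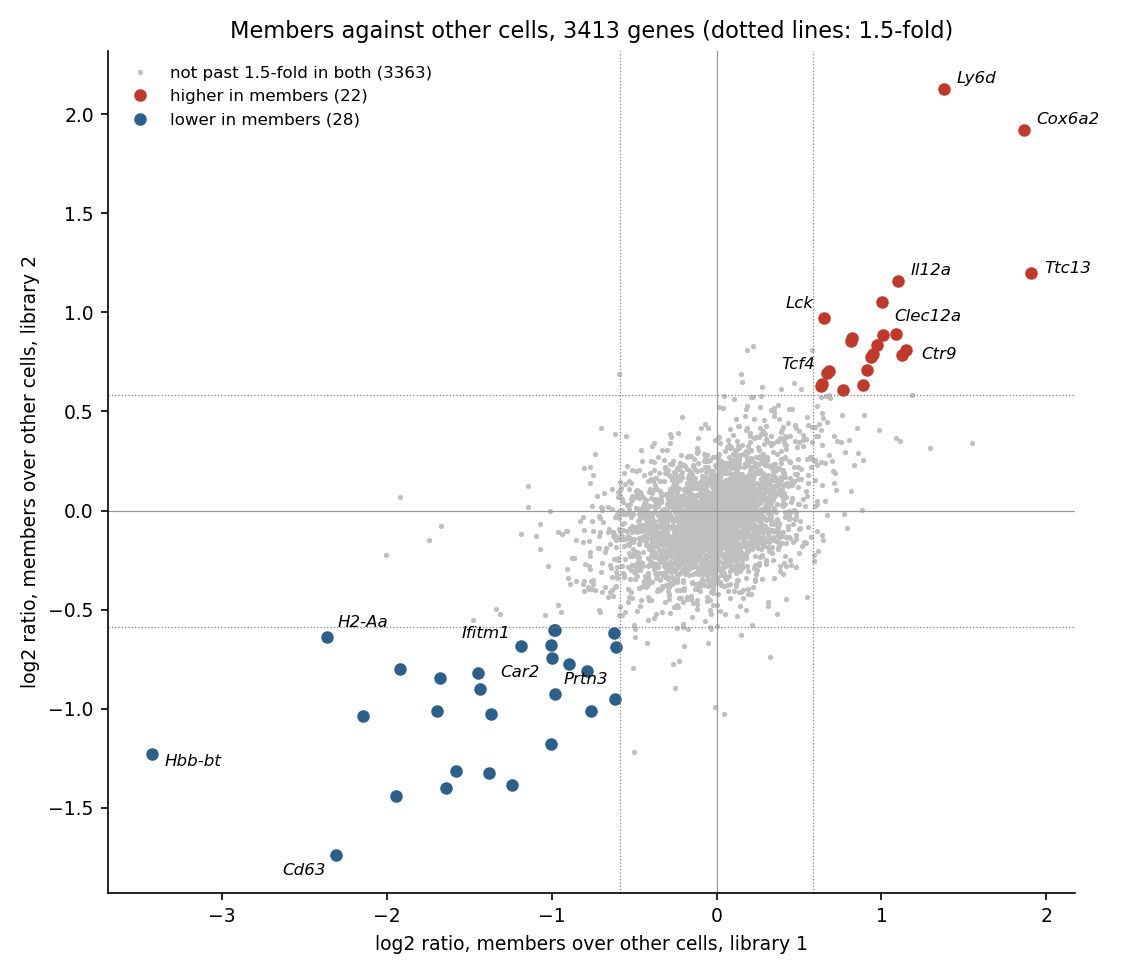
Each point is 1 of 3413 tested genes, placed by its log2 ratio of members over other cells in library 1 (x axis) and in library 2 (y axis), with dotted lines at 1.5-fold. The 22 genes higher in both libraries (red) include Cox6a2 and Ly6d, and the 28 lower in both (blue) include Cd63, while the rest (grey) lie around 0.

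Genes were ranked by the log2 ratio of the library in which it was nearer to 0, and on that ranking of tested genes Cox6a2 stood first among those that rose. It encodes a subunit of cytochrome c oxidase, the last complex of the respiratory chain, in the form known from heart and skeletal muscle. It lies on chromosome 7 at 128205435 to 128206387 (minus strand, GRCm38). Cox6a2 stood at 249 CPM in members and 65.7 CPM in other cells of library 2 (3.79-fold; log2 ratio 1.92, 1.75 to 2.09), and at 292 CPM in members and 80.1 CPM in other cells of library 1 (3.64-fold; 1.86, 1.61 to 2.11). Both libraries thus gave nearly the same ratio. The gene was ranked by that ratio, so the gap between members and other cells is a description. At 2000 UMIs per cell, 34.2% of members and 9.56% of other cells of library 2 had a Cox6a2 UMI, and 36.8% of members and 9.36% of other cells of library 1. Unthinned, these shares were 45.7% and 14.998% in library 2, and 42.2% and 12.4% in library 1. In cells with 0 Dntt UMIs and a Hlf or Mecom UMI, the thinned share was 1.61% in library 2 and 1.55% in library 1. Gate genes chose these cells too, so their share is a description and no floor. They held other lymphoid transcripts after thinning. Flt3 was found in 21.9% of them in library 2 and 19.7% in library 1, and Satb1 in 13.2% and 8.29%. Thinning set aside 34 members of library 2 and 65 of library 1 as too shallow, and 520 and 744 other cells.

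Ly6d ranked next. It encodes a surface protein anchored in the membrane by a lipid, which is used to divide common lymphoid progenitors into B-cell-biased and multilineage cells. It lies on chromosome 15 at 74762056 to 74763620 (minus strand). Ly6d stood at 89.3 CPM in members and 20.5 CPM in other cells of library 2 (log2 ratio 2.13, 1.82 to 2.42), and at 86.1 CPM in members and 33.1 CPM in other cells of library 1 (1.38, 0.93 to 1.82). Few cells carried this signal, and its variance among members was 8.73 and 4.51 times that of a Poisson count. The intervals given for Ly6d here and below treat UMIs as independent and are therefore too narrow. Only 43 of 516 members of library 2 (8.33%) and 22 of 277 members of library 1 (7.94%) had a Ly6d UMI, with up to 17 and 9 UMIs in 1 cell. Thinned shares were 6.64% in members and 1.44% in other cells of library 2, and 6.13% in members and 1.30% in other cells of library 1. None of the Dntt-negative cells with Hlf or Mecom had one after thinning, of 311 cells in library 2 and 193 in library 1, with upper binomial limits of 1.18% and 1.89%.

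Ttc13, which encodes a protein with tetratricopeptide repeats, and Il12a, which encodes the p35 subunit of the cytokines interleukin-12 and interleukin-35, were the next in rank. Ttc13 stood at 80.6 CPM in members and 35.2 CPM in other cells of library 2 (log2 ratio 1.20, 0.91 to 1.48), and at 104 CPM in members and 27.8 CPM in other cells of library 1 (1.91, 1.48 to 2.33). Il12a stood at 189 CPM in members and 84.6 CPM in other cells of library 2 (1.16, 0.97 to 1.34), and at 228 CPM in members and 106 CPM in other cells of library 1 (1.102, 0.83 to 1.36). Il12a was widespread rather than confined to members: 30.5% of members and 14.9% of other cells of library 2 had a UMI at 2000 UMIs, and 34.0% of members and 15.9% of other cells of library 1. In the Dntt-negative cells with Hlf or Mecom the share was 15.1% and 8.81%.

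The start regions of these 2 genes are shown because they rank just after Cox6a2 and Ly6d and hold the letters CAGGTG, which the window of Clec12a, next in rank, does not. CAGGTG is a form of E-box that E proteins such as those of Tcf3, Tcf4 and Tcf12 recognise. They are RefSeq windows of GRCm38.p6 from 250 bases before to 50 after the gene's start, written 5-prime to 3-prime along the gene's strand, with capitals marking CAGGTG or its reverse complement CACCTG, and CAGCTG. The window of Ttc13 is chr8:124721923-124722222 (minus strand) and that of Il12a is chr3:68690394-68690693 (plus strand, the one of its 2 windows nearest the annotated start).
Ttc13: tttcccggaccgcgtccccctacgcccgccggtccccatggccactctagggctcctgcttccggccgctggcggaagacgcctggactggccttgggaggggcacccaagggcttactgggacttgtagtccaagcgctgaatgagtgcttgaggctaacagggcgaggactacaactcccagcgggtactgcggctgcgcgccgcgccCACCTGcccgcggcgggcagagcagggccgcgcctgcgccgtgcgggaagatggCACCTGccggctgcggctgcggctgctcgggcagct
Il12a: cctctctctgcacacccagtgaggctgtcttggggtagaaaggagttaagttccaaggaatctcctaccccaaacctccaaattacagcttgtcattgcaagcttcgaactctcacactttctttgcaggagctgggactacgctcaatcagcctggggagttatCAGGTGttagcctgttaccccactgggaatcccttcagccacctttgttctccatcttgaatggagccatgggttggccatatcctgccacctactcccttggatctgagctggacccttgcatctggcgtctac
CAGGTG, on either strand, was present in a window of 5 of the 13 higher genes and 3 of the 23 lower genes that the table holds, and of 6098 of all 27025 genes in it (22.6%). CAGCTG, which is its own reverse complement, was present for 4 of 13 higher genes, 3 of 23 lower genes and 4944 of 27025 genes (18.3%). A match describes letters only.

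**Figure D2:**
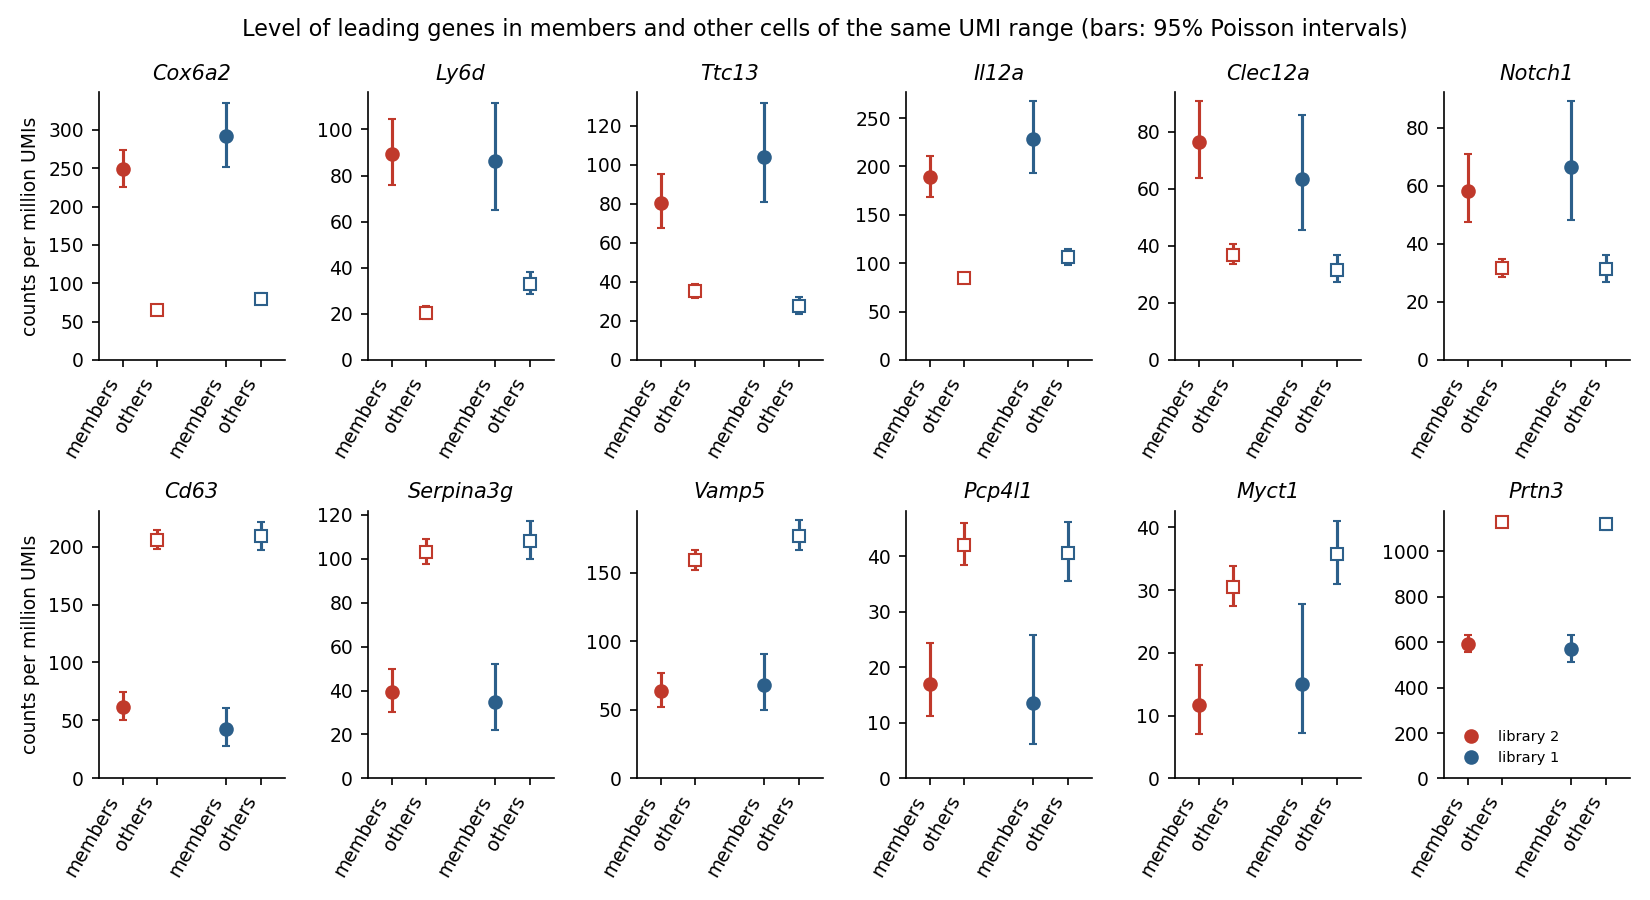
Levels in CPM (y axes, from 0) of the 6 genes ranked first among those higher in members (top) and of 5 from the top of those lower, with Prtn3 (bottom), for members (filled circles) and other cells of the same UMI range (open squares) in library 2 (red) and library 1 (blue), with 95% Poisson intervals. The 12 genes were picked by the ratio of members over other cells, so the gap between the 2 is a description.

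The 24-gene list of lymphoid priming leaned toward members as a whole, although few of its genes passed 1.5-fold. Of the 13 that were tested, 2 rose (Ly6d and Notch1) and 0 fell. The list's median log2 ratio was 0.40 in library 2 and 0.43 in library 1, and 12 and all 13 of its tested genes were above the median of all genes. Notch1, the receptor that directs progenitors to the T lineage, stood at 58.4 CPM in members and 31.5 CPM in other cells of library 2 (0.89, 0.56 to 1.21), and at 66.5 CPM in members and 31.3 CPM in other cells of library 1 (1.09, 0.58 to 1.57).

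The 2 marker genes named with Dntt for this population, Satb1 and Flt3, were higher in members by less. Satb1, a chromatin organiser of early lymphoid progenitors, stood at 102 CPM in members and 73.0 CPM in other cells of library 2 (0.48, 0.24 to 0.72), and at 104 CPM in members and 61.5 CPM in other cells of library 1 (0.76, 0.37 to 1.14). Flt3 stood at 192 CPM in members and 141 CPM in other cells of library 2 (0.44, 0.27 to 0.61), and at 169 CPM in members and 125 CPM in other cells of library 1 (0.43, 0.13 to 0.72). Neither was called, and every cell had passed the sort described above. Mef2c, a transcription factor needed for lymphoid fate in multipotent progenitors, had log2 ratios of 0.49 and 0.64. Cd27 had 0.34 and 0.33, and Bcl11a, a factor of early lymphoid development, had 0.40 and 0.28. The E protein gene Tcf3 was the exception, at -0.74 in library 2 and 0.32 in library 1.

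Some genes of the list were too low to be tested, and of these Blnk, Rag2 and Cnn3 leaned the same way. They are a selection, and 3 of the list's 24 genes had no UMI in any member. Blnk, the adaptor of the pre-B-cell receptor, had 54 UMIs in members and 87 in the more numerous other cells of library 2, which is 31.5 against 7.36 CPM, and 19 against 38 UMIs in library 1, which is 28.7 against 6.72 CPM. Rag2, a subunit of the V(D)J recombinase, had 32 against 60 UMIs in library 2 (18.7 against 5.07 CPM) and 9 against 24 UMIs in library 1 (13.6 against 4.24 CPM). Cnn3, an actin-binding calponin, had 102 against 240 UMIs in library 2 (59.6 against 20.3 CPM) and 31 against 80 in library 1 (46.8 against 14.1 CPM). Blnk, Rag2 and Cnn3 had log2 ratios of 1.55 to 2.10, with lower bounds of 0.39 to 1.58. Rag1, the other recombinase subunit, was nearly silent, with 1 UMI in members of each library and 5 and 2 in other cells.

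Most genes of committed lymphocytes had few or no UMIs, with Cd79b and Lck as the 2 that were tested. Of the 12 B-lineage genes, 6 had no UMI in any member, among them Pax5 and Cd79a, and only Cd79b was tested, at 81.7 CPM in members and 70.1 CPM in other cells of library 2 (0.22) and at 66.5 and 69.0 CPM in library 1 (-0.05). Ebf1, the factor that starts the B-cell program, had 6 UMIs in members and 14 in other cells of library 2, and 2 and 5 in library 1. Of the 15 genes of T, natural killer and innate lymphoid cells, 10 had no UMI in any member, Cd3e and Bcl11b included. Lck, the kinase of the T-cell receptor, was the only one tested and it rose. It stood at 90.5 CPM in members and 46.2 CPM in other cells of library 2 (0.97, 0.70 to 1.23), and at 75.5 CPM in members and 48.1 CPM in other cells of library 1 (0.65, 0.19 to 1.09). Summed with Cd79b, the B-lineage list stood at 98.1 CPM in members and 77.6 CPM in other cells of library 2, and at 86.1 and 78.3 CPM in library 1. With Lck, the T, natural killer and innate lymphoid list summed to 106 and 58.3 CPM in library 2, and to 101 and 59.8 CPM in library 1.

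Among partners of V(D)J joining, Xrcc6 rose. It encodes Ku70, which with Ku80 holds broken DNA ends during end joining. Xrcc6 stood at 146 CPM in members and 85.3 CPM in other cells of library 2 (0.77, 0.57 to 0.98), and at 148 CPM in members and 77.4 CPM in other cells of library 1 (0.93, 0.60 to 1.25). The list held 3 tested genes, and the other two, the abundant chromatin proteins Hmgb1 and Hmgb2, were not called. Hmgb1 had log2 ratios of -0.02 and 0.22, and Hmgb2 had 0.01 and 0.30. Xrcc5, the Ku80 gene, was not tested and had log2 ratios of -0.03 and 0.34. Of 3 tested genes for E proteins, Id inhibitors and the Ikaros family, 1 rose. This was Tcf4, the E protein known as E2-2, at 189 CPM in members and 122 CPM in other cells of library 2 (0.63) and 190 CPM in members and 123 CPM in other cells of library 1 (0.64). The value is just past 1.5-fold, and the call was lost under 3 of 16 alternative settings. Ikzf1, the Ikaros gene, had 0.37 and 0.60.

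The other higher genes were of mixed function. Clec12a, a lectin-like inhibitory receptor of myeloid cells, had log2 ratios of 1.05 and 1.003, and was the one gene of 11 tested from the list of myeloid granule and priming genes outside the gate that rose. Mta3, a component of the NuRD chromatin complex, had 0.88 and 1.01. Cd69, a lectin that holds the egress receptor S1PR1 inside the cell, had 0.87 and 0.82. Ifi27l2a, an interferon-induced gene, had 0.84 and 0.97, and was the 1 gene of 7 tested interferon response genes that rose, with 0 falling and a list median of 0.14 and 0.08. Myl10, a myosin light chain gene, had 0.86 and 0.82, and Tpm4, a tropomyosin gene, had 0.79 and 0.95. Ctr9, of the PAF1 elongation complex, had 0.81 and 1.15, Fbxw4, an F-box protein gene, 0.78 and 1.12, and Cdk19, a kinase of the Mediator complex, 0.71 and 0.91. Gimap6 and Gimap9, which encode GTPases of lymphocytes, Ctss (cathepsin S), Milr1 and Smim14 were also called, at 0.61 to 0.89.

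**Figure D3:**
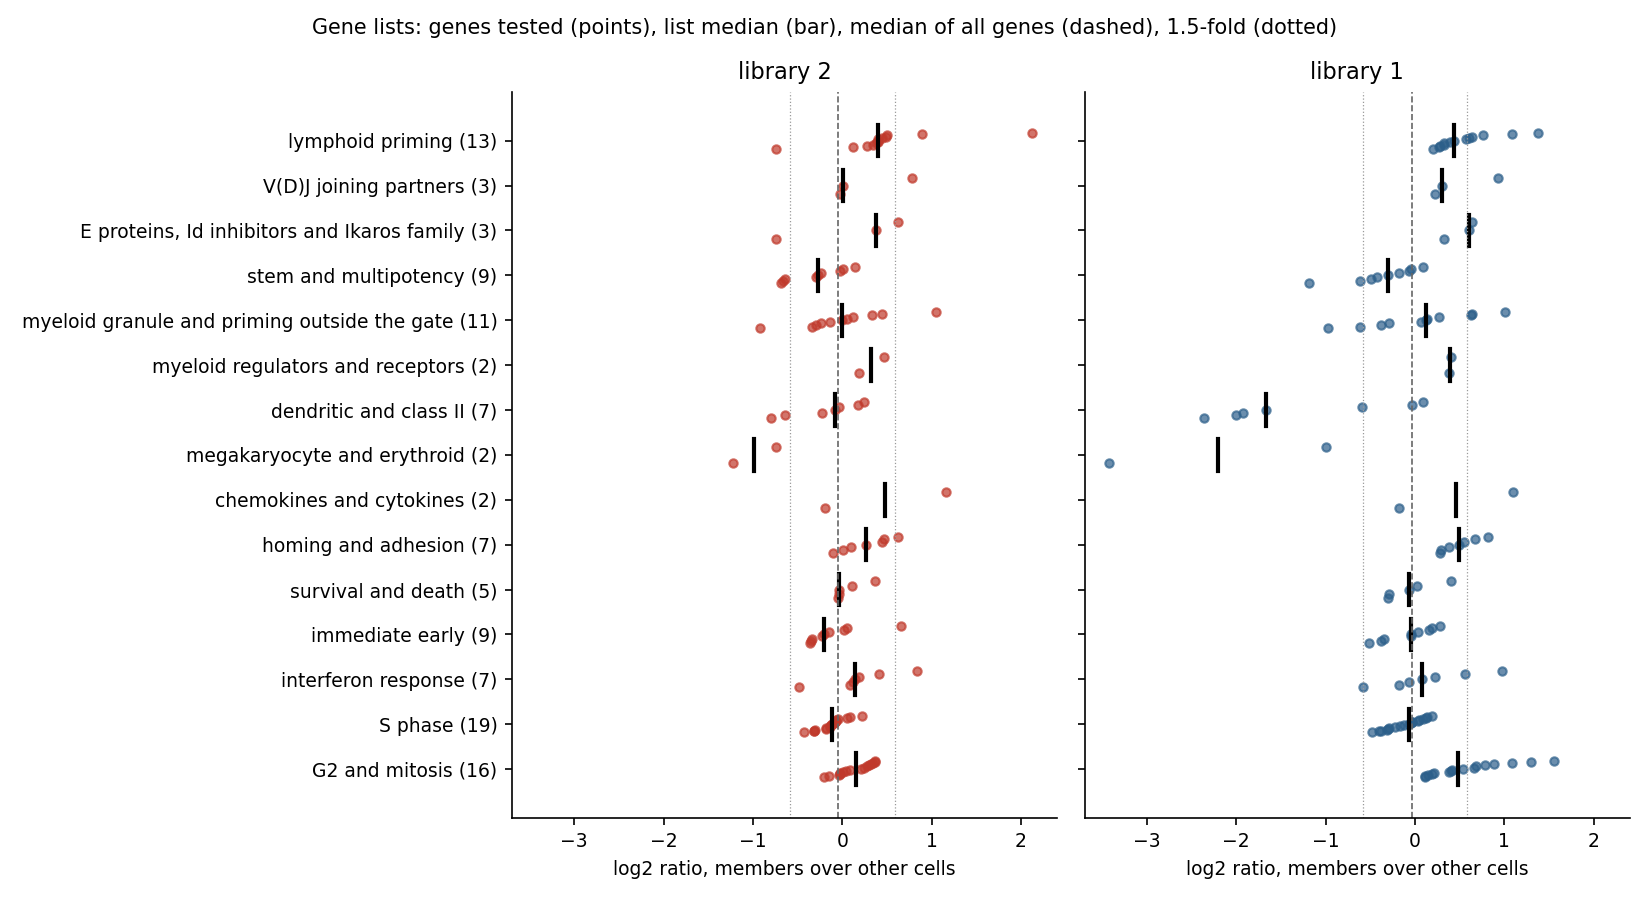
Log2 ratios of members over other cells (x axis) of the tested genes of each list (points, number in brackets) in library 2 (left) and library 1 (right), with the list median as a bar, the median of all tested genes dashed and 1.5-fold dotted. Lymphoid priming lies right of the dashed line in both libraries, at medians of 0.40 and 0.43, and stem and multipotency genes left of it, at -0.27 and -0.30.

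Cd63 stood first among the genes that fell, on the same ranking. It encodes a tetraspanin of lysosomes and secretory granules. Cd63 stood at 61.9 CPM in members and 206 CPM in other cells of library 2 (log2 ratio -1.74, -2.03 to -1.45), and at 42.3 CPM in members and 209 CPM in other cells of library 1 (-2.31, -2.90 to -1.77). At 2000 UMIs, 9.75% of members and 29.5% of other cells of library 2 had a Cd63 UMI, and 8.96% of members and 28.5% of other cells of library 1.

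Prtn3, the granule protease proteinase 3, shows how far the name "without myeloid granule transcripts" holds. It is a neighbour in function of the gated Elane, Mpo and Ctsg but was no part of the gate. Prtn3 stood at 593 CPM in members and 1128 CPM in other cells of library 2 (-0.93, -1.02 to -0.83), and at 569 CPM in members and 1121 CPM in other cells of library 1 (-0.98, -1.13 to -0.83). It thus fell, and yet it was among the more abundant transcripts of members. At 2000 UMIs, 60.2% of members and 82.8% of other cells of library 2 had a Prtn3 UMI, and 59.0% of members and 82.5% of other cells of library 1. Unthinned, 69.8% of members and 89.5% of other cells of library 2 had one. Members therefore lacked the 4 granule transcripts of the gate by definition, and most of them did not lack Prtn3. Free RNA in the droplets can add such UMIs, and its part was not tested.

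The list of granule and priming genes outside the gate, which holds Prtn3, did not move as a whole. Of its 11 tested genes, 1 rose and 1 fell, with a list median of 0.00 in library 2 and 0.13 in library 1. Plac8, a small cysteine-rich protein of progenitors and granulocytes, was very abundant, at 3379 CPM in members and 2492 CPM in other cells of library 2 (0.44, 0.40 to 0.48) and at 3690 CPM in members and 2398 CPM in other cells of library 1 (0.62, 0.56 to 0.68). Cst7, an inhibitor of cathepsins, had 0.33 and 0.64, and the lysozyme gene Lyz2 had -0.34 and -0.30. Of the myeloid regulators 2 were tested and 0 called. Irf8, the factor of monocyte and dendritic cell fate, had 0.46 and 0.38, and Ifngr1 0.19 and 0.41.

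Serpina3g, a serine protease inhibitor, had -1.40 and -1.64, and Vamp5, a vesicle SNARE protein, -1.32 and -1.38. Pglyrp1, a peptidoglycan-binding protein of neutrophil granules, had -1.04 and -2.14, and the calcium-binding S100a6 had -1.18 and -1.003. Pcp4l1, Esyt1 and Rab38 also fell, at -0.82 to -1.68.

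Of 18 genes of the megakaryocyte and erythroid list only 2 were tested, Car2 and Hbb-bt, and both fell. Car2, carbonic anhydrase 2, stood at 256 CPM in members and 430 CPM in other cells of library 2 (-0.75), and at 193 CPM in members and 386 CPM in other cells of library 1 (-0.997). Hbb-bt, an adult beta-globin gene, had -1.23 and -3.42, with 38 member UMIs in library 2 and 7 in library 1. The transcription factor gene Nfe2, known from megakaryocytes and erythroid cells, had -0.90 and -1.43. Krt18, Muc13 and Myct1 also fell, at -1.01 to -1.70.

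Of 9 tested stem and multipotency genes, 1 fell and 0 rose. Ifitm1, an interferon-induced membrane protein that is abundant in primitive progenitors, stood at 1533 CPM in members and 2460 CPM in other cells of library 2 (-0.68, -0.74 to -0.62), and at 1159 CPM in members and 2639 CPM in other cells of library 1 (-1.19, -1.29 to -1.08). Its relative Ifitm3 had -0.49 and -0.58, and the stem cell regulator Lmo2 had -0.64 and -0.50. The sort antigens Cd34 and Ly6a were closer to 0. Cd34 had -0.03 and -0.07, and Ly6a, which encodes Sca-1, had 0.01 and 0.09. Kit, also a sort antigen, had -0.24 in library 2 and -0.62 in library 1.

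Class II antigen presentation genes set the libraries apart. H2-Aa and H2-Eb1 were both called lower, out of 7 tested genes of the dendritic and class II list. H2-Aa stood at 23.9 CPM in members and 37.3 CPM in other cells of library 2, and at 33.2 CPM in members and 171 CPM in other cells of library 1. The list's median was -0.08 in library 2 and -1.67 in library 1. Among comparison cells, 21 of library 2 and 33 of library 1 held 10 or more class II UMIs. Without them the median in library 1 was 0.05 and H2-Aa was not called. These cells were picked by class II UMIs, so a rise of the class II ratios was fixed in advance. The 5 members of library 2 and 2 of library 1 with as many class II UMIs were not removed in this setting.

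Homing and adhesion genes leaned toward members with 0 called of 7 tested, at medians of 0.26 and 0.49. Cd44, a receptor of hyaluronan and osteopontin, had 0.47 and 0.55, and Itga4, the alpha-4 integrin, 0.45 and 0.67. Of 5 survival genes, 9 immediate early genes and 19 S phase genes, 0 were called. Bcl2 had 0.36 and 0.41, Junb, an AP-1 subunit, -0.36 and -0.05, and Pcna, the replication clamp, -0.14 and -0.32.

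Genes of G2 and mitosis were likewise not called in both libraries, and here the libraries differed. The median of 16 tested genes was 0.15 in library 2 and 0.48 in library 1. Ube2c, a ubiquitin-conjugating enzyme of mitotic exit, stood at 308 CPM in members and 243 CPM in other cells of library 2 (0.34, 0.20 to 0.47), and at 269 CPM in members and 91.8 CPM in other cells of library 1 (1.55, 1.30 to 1.80). In the same UMI range, 31.8% of members and 37.1% of other cells of library 2 held 5 or more UMIs of these genes after thinning, and 29.8% of members and 21.1% of other cells of library 1. The share and the level pointed opposite ways in library 2, so no order is read from either there.

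Most markers of other cell types had no UMI in any member. Many genes of the matrix had none in any kept cell, as given above, so no absence particular to members is read here either. Of 6 mast cell and basophil genes, 5 had no UMI in any member, and the exception, Mcpt8, had 5 UMIs in library 2. Of 8 macrophage and neutrophil genes, 6 had none, C1qb, Retnlg and Mmp8 included, and the lysosomal gene Cd68 had log2 ratios of -0.51 and -0.71. Of 8 endothelial and stromal genes, 6 had none, and Pecam1, which progenitors also express, had 0.83 and 0.22, with 46.7 CPM in members and 26.3 CPM in other cells of library 2. The part of other cells in these levels was not tested. The plasma cell list summed to 43.2 CPM in members and 35.001 CPM in other cells of library 2, and to 39.3 CPM in members and 33.4 CPM in other cells of library 1, mostly from Xbp1 and Sdc1.

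Unevenness within the members was ranked by the library with the lower value, and Ube2c and Ly6d stood first. Variance over that of a Poisson count at the same depths had a median of 1.05 in library 2 and 1.06 in library 1 over 1834 genes. It was 8.73 and 4.51 for Ly6d, 5.40 and 5.34 for Ube2c, 3.11 and 9.14 for the class II invariant chain gene Cd74, and 3.57 and 2.84 for the centromere histone gene Cenpa. The other genes of the 10 most uneven were Hmgb2, Ifitm1, Rpl22l1, Lgals1, mt-Cytb and Malat1. After thinning, Cox6a2 and Ly6d were found together in 18 members of library 2, against 10.95 if independent, and in 9 members of library 1, against 4.78. Ttc13 and Ly6d were found together in 9 members of library 2, against 4.85, and in 9 members of library 1, against 2.39. Prtn3 and Ly6d were found together in 11 members of library 2, against 19.3 if independent, and in 2 members of library 1, against 7.67. Il12a and Ly6d went opposite ways, with 7 against 9.76 in library 2 and 7 against 4.42 in library 1. These pairs are a selection of those counted.

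Members with a Ly6d UMI were therefore set beside those without, a split chosen after the values had been seen. The 43 and 22 cells with Ly6d had median depths of 3544 and 2471 UMIs, and the 473 and 255 without had 3689 and 2716. Cox6a2 stood at 587 CPM in members with Ly6d and 215 CPM in those without in library 2 (log2 ratio 1.45, 1.104 to 1.78), and at 737 CPM with and 251 CPM without in library 1 (1.56, 1.03 to 2.05). Ttc13 had 0.64 (-0.13 to 1.34) and 2.06 (1.22 to 2.83). Cnn3 had 1.79 and 1.89, and Blnk 1.49 (0.44 to 2.43) and 1.39 (-0.62 to 2.98). In the other direction, Prtn3 stood at 303 CPM with Ly6d and 655 CPM without in library 2 (-1.11, -1.56 to -0.70), and at 108 CPM with and 633 CPM without in library 1 (-2.55, -4.01 to -1.42). Ifitm1 had -1.51 and -1.52, and Car2 -1.28 and -2.49. Not all leading genes followed: Cd63 had -3.31 in library 2, from 1 UMI with Ly6d, and 0.23 in library 1, and Cd69 had -0.72 and 1.23. Ly6a, which was near 0 between members and other cells, had 0.67 (0.29 to 1.02) and 0.83 (0.26 to 1.36).

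Other lymphoid genes varied in how they went with Ly6d. Lck had 0.51 (-0.26 to 1.20) and 1.29 (0.07 to 2.34), and Xrcc6 had 0.71 (0.17 to 1.21) and 0.66 (-0.35 to 1.53). Notch1 had 5 UMIs in members with Ly6d and 107 in those without in library 2 (log2 ratio -0.93, -2.58 to 0.34), and 3 and 48 in library 1 (-0.36, -2.69 to 1.27). Flt3 had 0.07 and 0.26, and Satb1 0.14 and 0.60, with intervals that include 0. Irf8, of monocyte and dendritic cell fate, stood at 442 CPM with Ly6d and 162 CPM without in library 2 (1.45, 1.05 to 1.83). In library 1 Irf8 had 0.63 (-0.29 to 1.43). Siglech, a lectin of plasmacytoid dendritic cells, had 3 of its 6 member UMIs of library 2 and 5 of its 7 of library 1 in cells with Ly6d. Mzb1, a chaperone of B cells and plasmacytoid dendritic cells, had 9 UMIs with Ly6d and 7 without in library 2, and 4 and 4 in library 1, although cells with Ly6d were the far smaller set.

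The members were next set beside the Dntt-high cells that failed on 1 condition, in the same UMI range. With Il7r, 104 cells of library 2 and 43 of library 1 could be compared, and 797 genes were tested. In members 4 of these genes were higher (0.502%) and 1 was lower (0.125%). The lower gene was Cox6a2, at 249 CPM in members and 458 CPM in cells with Il7r of library 2 (-0.88, -1.14 to -0.62), and at 292 CPM in members and 663 CPM in cells with Il7r of library 1 (-1.19, -1.57 to -0.79). The 4 higher genes were Prtn3 (0.66 and 0.92), Ifitm1 (1.07 and 0.84), Car2 (1.08 and 1.17) and Ctla2a, a cathepsin inhibitor-like gene (0.66 and 1.15). Ly6d was too low to be tested, at 89.3 CPM in members and 230 CPM in cells with Il7r of library 2, and 86.1 and 301 CPM in library 1. Il12a differed little, at 0.11 and -0.27, with intervals from -0.27 to 0.51 and from -0.83 to 0.33. Of all cells with Il7r thinned to 2000 UMIs, in the range or not, 42.1% in library 2 and 41.0% in library 1 had a Prtn3 UMI. These shares were below those of all members.

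With granule transcripts, 183 cells of library 2 and 75 of library 1 could be compared, and members differed from them little. Of 1441 genes tested, 1 was higher in members (0.0694%) and 0 were lower (0%). The 1 gene was Vgll4, a cofactor of TEAD transcription factors, at 96.3 CPM in members and 58.0 CPM in cells with granule transcripts of library 2 (0.73), and at 112 and 72.6 CPM in library 1 (0.62). Prtn3 stood at 593 CPM in members and 821 CPM in cells with granule transcripts of library 2 (-0.47), and at 569 and 744 CPM in library 1 (-0.39). Cox6a2 had 0.53 and 0.39. Ly6d was again not tested and stood at 89.3 CPM in members and 26.5 CPM in cells with granule transcripts of library 2 (1.76, 1.09 to 2.49), and at 86.1 and 36.3 CPM in library 1 (1.25, 0.17 to 2.53). The granule cells were deeper, with medians of 4430 and 2940 UMIs in the range. Of all granule cells thinned, in the range or not, 51.8% in library 2 and 42.4% in library 1 held 5 or more G2 and mitosis UMIs. Among all members thinned the shares were 34.0% and 30.2%, and the part of depth in this was not tested.

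**Figure D4:**
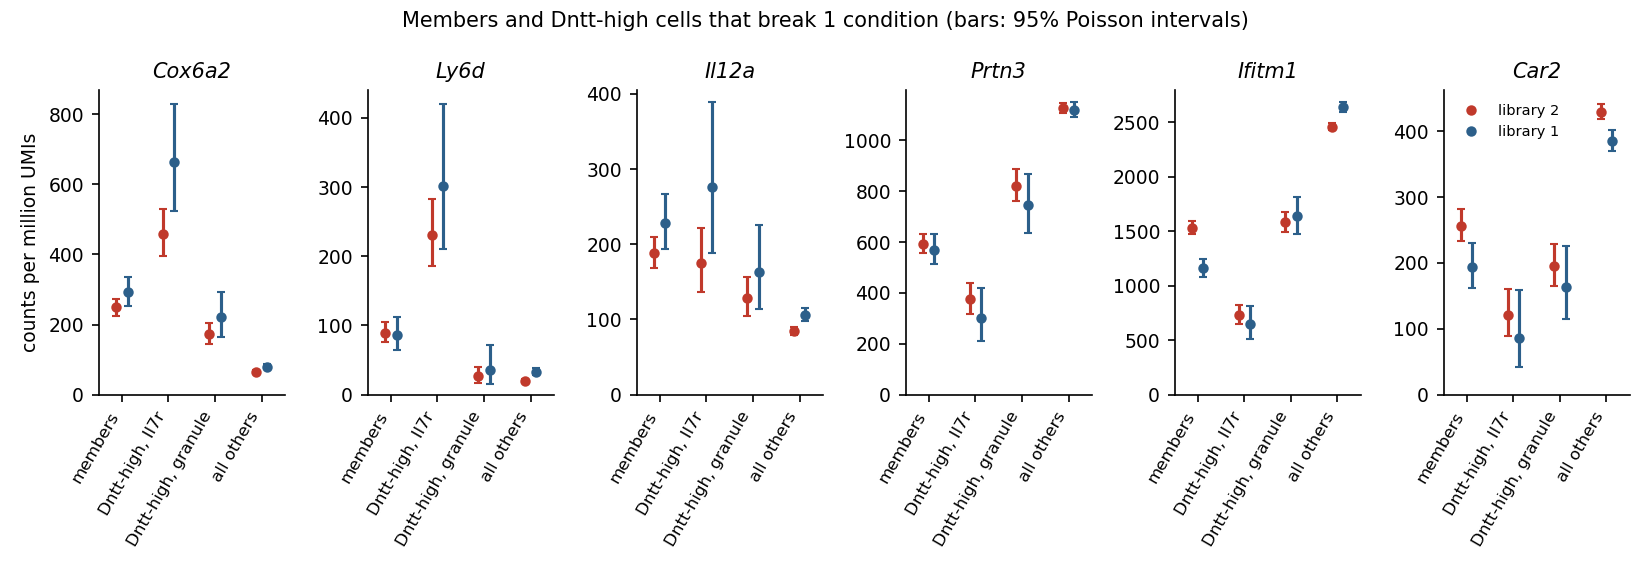
Levels in CPM (y axes, from 0) of 6 genes in members, in Dntt-high cells with Il7r, in Dntt-high cells with granule transcripts and in all other kept cells of the UMI range, in library 2 (red) and library 1 (blue), with 95% Poisson intervals. Cox6a2 is at 249 and 292 CPM in members, below the cells with Il7r and above all other cells, and Prtn3 has the reverse order.

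Levels followed the number of Dntt UMIs also outside the gate. In cells thinned to 2000 UMIs with none of the other gate transcripts, Cox6a2 in library 2 stood at 32.3 CPM with 0 Dntt UMIs, 54.1 with 1, 100.4 with 2, 147 with 3 or 4, 328 with 5 to 7 and 375 with 8 or more. In library 1 it stood at 37.2, 79.9, 128, 243, 292 and 605 CPM. Cox6a2, Il12a, Prtn3, Ifitm1 and Car2 kept 1 direction over all 6 bins in both libraries, upward for the first pair and downward for the others. Prtn3 stood at 1188 CPM in the lowest and 422 CPM in the highest bin of library 2, and at 1160 and 314 CPM in library 1. Ly6d was not steady, with 15.4 CPM from 2 UMIs at 5 to 7 Dntt UMIs in library 1. The highest bin held 96 cells in library 2 and 43 in library 1, and since Dntt is the gate gene these values are a description.

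**Figure D5:**
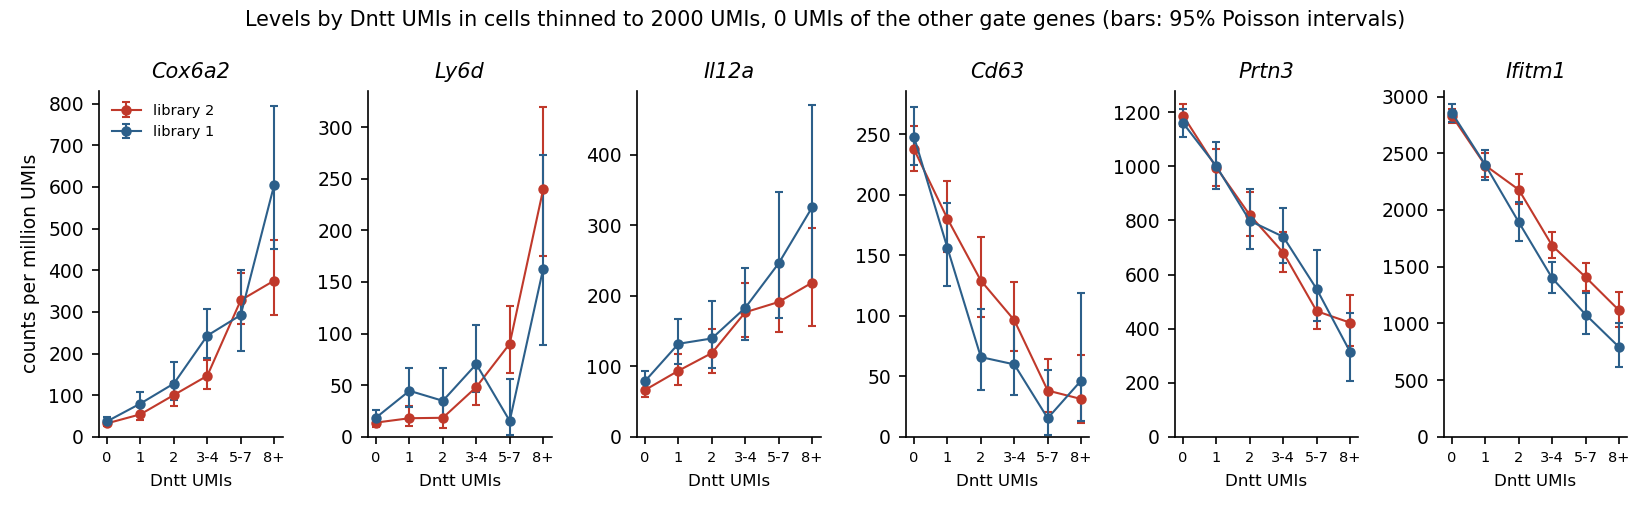
Levels in CPM (y axes, from 0) of 6 genes in cells grouped by their Dntt UMIs (x axes) after thinning to 2000 UMIs, among cells with 0 UMIs of the other gate genes, in library 2 (red) and library 1 (blue), with 95% Poisson intervals. Cox6a2 and Il12a are higher in each next bin, and Prtn3 and Ifitm1 lower.

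Over all kept cells that reached 2000 UMIs, 4016 in library 2 and 2444 in library 1, the transcript most like Dntt by Spearman correlation among 2772 genes was Cox6a2, at 0.33 and 0.30. Plac8 followed at 0.22 and 0.30, and Il12a at 0.18 and 0.21, then Ramp1, Rps24, Myl10, Rpl3, Ptprcap and Smim14 at 0.20 or less. The most unlike were Ifitm1 (-0.30 and -0.32) and Prtn3 (-0.32 and -0.27). These weak values share libraries, depth and sparse counts, and are given with no test.

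Finally, members of library 2 were set beside members of library 1. Of 4797 genes with at least 50 UMIs in members, 483 were 1.5-fold or more higher in library 2 (10.1%) and 116 lower (2.42%). The same genes in other kept cells gave 3.44% and 0.896%, from far more UMIs, so the larger shares in members came with fewer counts. The median log2 ratio of library 2 over library 1 was 0.12 in members and 0.14 in other cells. The largest ratios were shared with the other cells. Ppia, the cyclophilin A gene, stood at 952 CPM in members of library 2 and 100.04 CPM in members of library 1 (3.25, 2.92 to 3.60), with 2.75 in other cells. Gstp1, Polr2k, Ndufs5, Pgk1 and Mrpl23 had 2.45 to 3.798 in members and 2.36 to 3.995 in other cells. At the low end, Rps27rt, Dnajb14, Hist1h2bj, Klhdc4 and H2-Eb1 had -1.55 to -1.31 in members. Hspa1a, an inducible heat shock gene, stood at 10.8 CPM in members of library 2 and 38.7 CPM in members of library 1 (-1.84, -2.72 to -0.98), and had -0.67 in other cells.

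Between members of the libraries, Cox6a2, Il12a, Ly6d and Prtn3 had intervals of the log2 ratio that include 0. Those of Cox6a2 (-0.22, -0.46 to 0.02) and Il12a (-0.27, -0.54 to 0.01) only just did. Ly6d had a wide interval (0.18, -0.24 to 0.62), and Prtn3 had 0.08 (-0.08 to 0.24). Cox6a2 stood at 246 CPM in all members of library 2 and 287 CPM in those of library 1, Il12a at 183 and 220 CPM, Ly6d at 93.8 and 82.7 CPM, and Prtn3 at 627 and 594 CPM. Other called genes differed more: library 2 over library 1 was 0.47 for Car2 (0.20 to 0.75), 0.39 for Ifitm1 (0.28 to 0.50), -0.41 for Ifi27l2a (-0.73 to -0.08) and -1.09 for H2-Aa (-1.75 to -0.42). Of 16 lymphoid priming genes with enough UMIs, 0 were past 1.5-fold in either direction, with a median of -0.05. Of 24 G2 and mitosis genes, 13 were higher in library 2 and 0 lower, with a median of 0.61 in members and 0.78 in other cells. Ccnb1, the cyclin of mitotic entry, stood at 89.7 CPM in members of library 2 and 49.4 CPM in those of library 1. Depth differed between the libraries in the same direction, and its part was not tested. Library and genotype cannot be told apart here, and neither can library and preparation.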

How the data were processed

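Per the labels, RNA of sorted bone marrow progenitors was made into droplet-based single-cell libraries. The authors deposited 1 matrix of UMI counts per gene and barcode for both samples. Cell Ranger 1.1 and the mm10 build are named in the submitters' processing notes, and other settings are not given in the sources used here. Of 7884 barcodes (4572 of library 2, 3312 of library 1), 2 and 59 were removed for under 500 genes or 10% or more mitochondrial UMIs. The members and gene lists were chosen with earlier results of these data known. UMIs were summed over members and over other kept cells within the members' 5th to 95th UMI percentile, per library. A gene was tested where 20 member UMIs were expected in each library. The genes ranked first were the 15 with the largest ratio in each direction among those called, ranked by the library nearer to 0. Thinning drew 2000 UMIs per cell without replacement. No doublet caller was run, and leaving out the 5% of cells with most UMIs was an alternative. Coordinates are from GENCODE M21 (27645 of 27998 gene identifiers found). A few genes that met these rules are not reported here. The scripts were tested on simulated data. Python 3.11.15, numpy 2.4.6, scipy 1.17.1, pandas 2.3.3 and matplotlib 3.10.9 were used.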

Additional observations from a re-analysis of the deposited data

How the results depend on the processing

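No paired analysis was possible because each genotype had 1 library. The main comparison gave 22 higher and 28 lower genes. These counts were 44 and 52 against comparison cells with 0 Dntt UMIs, 14 and 15 after thinning, 35 and 47 without the Il7r condition, 74 and 158 at 5 expected UMIs, 10 and 10 at 50 expected UMIs, and 5 and 11 at 2-fold. With at least 1000 genes and under 5% mitochondrial UMIs, 18 were lower. None of the 30 genes ranked first lost its call in any of 16 settings in which it was tested, though 59 gene and setting pairs were not tested. These genes were picked for the largest ratios and most settings share cells, so keeping the call was in large part fixed by that choice. Ly6d was untested with 0-Dntt comparison cells, thinning, 6 Dntt UMIs, the 1000-gene filter and 50 expected UMIs. Of the 20 other called genes, 16 lost their call somewhere. The class II list median of library 1, -1.67, moved to -1.22 with UMI-bin weighting, -1.01 with no UMI match, -2.30 against Dntt-negative cells, -0.94 after thinning, -1.20 at 3 Dntt UMIs, -1.26 without the Hlf and Mecom condition and -0.42 with the stricter cell filter, and it reversed to 0.048 without class II-high comparison cells. The granule list median of library 2, 0.00, moved to -0.15 against Dntt-negative cells and to -0.13 after thinning and at 6 Dntt UMIs. The homing list median of library 2, 0.26, moved to 0.48 against Dntt-negative cells. The share of members, 11.3% and 8.52%, moved to 14.2% and 11.3% at 3 Dntt UMIs, 7.68% and 5.10% at 6, 13.9% and 10.0% without the Il7r condition, 9.36% and 6.67% after thinning, and to 12.6% in library 2 without the Hlf and Mecom condition. The 116 genes lower in members of library 2 than of library 1 became 176 with TMM scaling. Except where the setting itself changes which cells or genes enter, the cause was not tested. Low genes such as Rag1 and Ebf1 are limited by depth.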
